A study of Homo sapiens with 9 samples.

Results

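The genes described here occupy a stretch of the long arm of chromosome 3, from 155.8 to 184.3 Mb by the gene starts in RefSeq's GRCh38 annotation, which runs from about GMPS to about AP2M1. A gene was a member when its array row had a symbol and its start lay in that interval, and TNFSF10 and PIK3CA were set aside by the rule. This gave 105 members of the 17687 named genes on the array. The limits in Mb took in SLC33A1 at one end, before GMPS, and the genes up to PSMD2 at the other end, beyond AP2M1. The interval was selected on measured values, namely the differences between the means of both knockout clones, so that contrast is given as a description and its p-values support nothing.

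RNA of L-1236, a cell line from a Hodgkin lymphoma, was measured on 9 human Clariom S arrays in 3 groups of 3. The control group (v2) held L-1236 cells whose genotype label names the lentiviral Cas9 vector and whose titles call them wild type. Clone g2_1 carried the vector with a guide to the second exon of LTA, the gene of the cytokine lymphotoxin alpha, and clone g3_4 carried it with a guide to the fourth exon. The clones had been maintained in conditioned medium from L-1236 cells, and all 3 groups were grown for 72 h in RPMI with heat-inactivated serum before RNA was taken. Each knockout was 1 single-cell clone with a guide of its own, so guide and clone cannot be told apart. Whether control cells were a clone, or had seen conditioned medium, is not labelled. Separate cultures for the 3 arrays of a group are not stated, so p-values reflect only how these samples vary, possibly for technical reasons.

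Genes that lie side by side on a chromosome arm share a position and not necessarily a function. This stretch holds genes of protein synthesis, mitochondria, chromosome structure, ubiquitin transfer and signalling beside genes known from neurons, gut or testis. An RNA array measures transcripts, and the DNA of these cells was not examined here.

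The targeted gene LTA had a mean log2 signal of 11.24 ± 0.29 on the control arrays, 7.54 ± 0.43 for clone g2_1 and 6.93 ± 0.32 for clone g3_4 (SD, n = 3 each). Array medians ran from 6.15 to 6.29, with the control arrays above the knockout arrays. Of the 6 Hodgkin markers, IRF4 lay at 11.83, TNFRSF8 (CD30) at 11.11 and FSCN1 at 10.96 in control cells. TRAF1 lay at 8.62, FUT4 at 7.59 and CCL17 at 6.78 there. CCL17 was thus below the B cell marker CD79A and the myeloid marker CSF1R, and it lay at 5.86 in g2_1 and 5.80 in g3_4. Levels of the other cell types below are those of control cells. The 3 T cell markers found lay at 4.23 to 4.87, near the floor of the array. Of the B cell markers, MS4A1 lay at 4.38, while CD79A and CD79B lay at 6.91 and 6.35. Among the myeloid markers LYZ lay at 4.24 and CSF1R at 7.51. Marker levels were measured as a check of the cell type, and their part in the differences below was not tested. Levels are sorted below by the mean of a row over the 9 arrays, whose first quartile was 4.65 and whose median was 6.20 over the 20893 rows tested. Of the members, 62 lay at or above the median, 9 lay between the quartile and the median, and 34 lay under the quartile.

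Promoter windows of 300 bases, from 250 before to 50 after the start, were found in RefSeq's GRCh38.p14 table for 95 of the 105 members. Letters of 5 motifs were searched on both strands, namely the TATA box (TATAAA), the CCAAT box (CCAAT), the GC box (GGGCGG), the ETS core (CCGGAAG) and the cAMP response element (TGACGTCA), and capitals mark the matches. The 6 windows shown were chosen after values were seen. They are those of GNB4, PLD1 and PARL, which had large differences between the clones, of IFT80 and SMC4, which lie head to head, and of MFSD1, the member that fell most against control. The windows lie at chr3:179451421-179451720 (GNB4, minus strand), chr3:171810434-171810733 (PLD1, minus strand), chr3:183884831-183885130 (PARL, minus strand), chr3:160399176-160399475 (IFT80, minus strand), chr3:160399400-160399699 (SMC4, plus strand) and chr3:158801804-158802103 (MFSD1, plus strand).
GNB4: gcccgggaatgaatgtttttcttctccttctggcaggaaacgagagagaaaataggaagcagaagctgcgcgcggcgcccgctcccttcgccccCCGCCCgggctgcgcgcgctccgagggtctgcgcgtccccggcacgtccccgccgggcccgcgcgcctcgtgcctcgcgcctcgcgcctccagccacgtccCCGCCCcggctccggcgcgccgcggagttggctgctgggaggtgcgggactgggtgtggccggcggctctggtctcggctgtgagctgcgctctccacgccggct
PLD1: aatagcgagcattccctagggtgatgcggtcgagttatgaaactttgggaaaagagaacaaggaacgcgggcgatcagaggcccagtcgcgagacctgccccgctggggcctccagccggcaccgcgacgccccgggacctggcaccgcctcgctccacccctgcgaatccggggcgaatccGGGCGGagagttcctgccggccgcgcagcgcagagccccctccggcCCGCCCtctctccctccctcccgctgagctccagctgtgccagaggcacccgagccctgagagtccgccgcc
PARL: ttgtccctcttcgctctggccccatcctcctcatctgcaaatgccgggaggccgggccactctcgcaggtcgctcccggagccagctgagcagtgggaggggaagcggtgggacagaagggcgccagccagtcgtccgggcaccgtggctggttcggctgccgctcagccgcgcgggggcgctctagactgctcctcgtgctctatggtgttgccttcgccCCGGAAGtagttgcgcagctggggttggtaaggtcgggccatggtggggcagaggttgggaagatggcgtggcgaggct
IFT80: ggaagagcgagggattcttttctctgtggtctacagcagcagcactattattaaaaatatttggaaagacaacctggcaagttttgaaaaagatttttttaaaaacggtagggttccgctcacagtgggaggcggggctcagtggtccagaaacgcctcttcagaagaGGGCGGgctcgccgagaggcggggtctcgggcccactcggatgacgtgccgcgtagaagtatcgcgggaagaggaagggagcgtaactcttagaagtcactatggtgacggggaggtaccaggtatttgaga
SMC4: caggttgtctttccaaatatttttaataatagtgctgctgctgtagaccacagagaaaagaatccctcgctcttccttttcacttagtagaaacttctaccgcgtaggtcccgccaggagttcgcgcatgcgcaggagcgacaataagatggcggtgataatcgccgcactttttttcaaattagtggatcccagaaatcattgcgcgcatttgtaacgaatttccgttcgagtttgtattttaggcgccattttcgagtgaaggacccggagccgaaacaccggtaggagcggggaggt
MFSD1: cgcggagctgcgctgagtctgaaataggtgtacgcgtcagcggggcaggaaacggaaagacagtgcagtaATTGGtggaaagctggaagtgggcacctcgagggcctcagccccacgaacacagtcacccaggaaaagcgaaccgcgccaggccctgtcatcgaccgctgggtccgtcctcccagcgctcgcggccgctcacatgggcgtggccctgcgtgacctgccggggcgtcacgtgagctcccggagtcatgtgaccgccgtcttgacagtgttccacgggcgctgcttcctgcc
The GNB4 and PLD1 windows each hold 2 GC boxes, the IFT80 window holds 1, the PARL window holds 1 ETS core, the MFSD1 window holds 1 CCAAT box and the SMC4 window holds none of the 5. The windows of IFT80 and SMC4 share 76 bases on opposite strands, and those of LRRIQ4 and LRRC34 share 65.

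The members' promoters differed in base composition by level. The median GC content was 63.7% over the 58 matched members at or above the median level, 56% over the 31 under the first quartile and 58.7% over the 35116 promoters in the table. A GC box was present in 69% of the first set, 32.3% of the second and 45% of all promoters. The CCAAT box was present in 31%, 32.3% and 34.6%, and the TATA box in 10.3%, 12.9% and 11.5%. The ETS core was present in 13.8%, 12.9% and 10.3% and the cAMP response element in 3.45%, 3.23% and 1.85%. These are matches of letters in a window and do not show that a factor binds there.

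Between the clones, most members with a clear signal were slightly higher in g2_1 than in g3_4. Over the 62 members at or above the median level the median difference was 0.345 on the log2 scale, a 1.27-fold ratio, with quartiles of 0.24 and 0.43. Over all rows of that level the median was 0.01. The mean was higher in g2_1 for 60 of the 62, where 52.3% of all rows of that level were higher, and 48 of the 62 differences lay between 0.2 and 0.6. The exceptions were HTR3D, a serotonin receptor subunit, at -0.03, and TRIM59, a ubiquitin ligase of the TRIM family, at -0.05. All of these values come from the contrast that chose the interval, and nothing is read from their size beyond the description.

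Singly, few of these differences passed the adjustment over all rows. The median standard error over the 62 members was 0.146, against the median difference of 0.345. At an adjusted p under 0.05 (limma, Benjamini-Hochberg over all rows), 1 of the 105 members was higher in g2_1 and 0 were lower, against 0.0191% and 0.0335% of all rows, and at an unadjusted p under 0.05 the counts were 37 and 0, against 2.29% and 2.13%. The member that passed was GNB4, and its call was lost when any 1 array other than control array 1 was left out. With the array number as a replicate block, GNB4, PLD1 and PARL passed, which makes 3. The 3 arrays of g2_1 lay above all 3 of g3_4 for 40 members and below them for 3, against 5.99% and 5.55% of all rows. The count of single members called thus moved with the setting, and array weights gave 5, with TIPARP and ZNF639 added. The share of all rows called with the block or the weights is not given here.

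The difference followed the level. Over the 34 members under the first quartile the median was 0.02, and over the 9 members between quartile and median it was 0.08. Across the 105 members the difference between the clones and the mean level had a Pearson correlation of 0.656 and a Spearman correlation of 0.706, where all points come from the same 9 arrays and differences are compressed near the floor. The members lower in g2_1 without overlap were SLC66A1LP at -0.26, SAMD7 at -0.21 and C3orf80 at -0.20, all with group means between 4.1 and 4.7. The largest difference in that direction, -0.28 for MFSD1, came with overlapping arrays.

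GNB4, a beta subunit of heterotrimeric G proteins, had log2 signals of 9.84, 9.48 and 9.48 on the g2_1 arrays, 8.60, 8.52 and 8.35 on the g3_4 arrays and 8.69, 8.23 and 8.16 on the control arrays. The g2_1 arrays lay above all other arrays, while those of g3_4 fell within the control range. The difference between the clones was 1.11 (SE 0.16), a 2.16-fold ratio. PLD1, a phospholipase that makes the signalling lipid phosphatidic acid, had signals of 8.08, 8.37 and 8.46 in g2_1, 7.33, 7.57 and 7.64 in g3_4 and 6.91, 7.32 and 7.39 in control. Here too g2_1 stood above every other array, and g3_4 overlapped control. The difference was 0.79.

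Both mitochondrial membrane proteins among the largest differences took different places against control. PARL, a protease of the inner membrane, had signals of 9.36, 9.25 and 9.21 in g2_1, 8.76, 8.57 and 8.51 in g3_4 and 8.84, 8.74 and 8.68 in control, a difference of 0.66 between the clones. For PARL the g2_1 arrays stood apart and g3_4 overlapped control. MFN1, which fuses outer membranes, had signals of 7.15, 7.54 and 7.07 in g2_1, 6.37, 6.75 and 6.61 in g3_4 and 7.21, 6.96 and 7.00 in control, a difference of 0.68. For MFN1 it was g3_4 that lay below every other array, and g2_1 overlapped control.

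TIPARP, a mono-ADP-ribosyltransferase, had signals of 10.43, 10.47 and 10.49 in g2_1, 9.84, 9.86 and 9.92 in g3_4 and 8.98, 9.54 and 9.62 in control. Its 3 groups did not overlap, in the order g2_1, g3_4, control, and the clones differed by 0.59. KLHL6, a substrate adaptor of a ubiquitin ligase known from B cells, had signals of 8.97, 9.27 and 9.40 in g2_1, 8.53, 8.75 and 8.79 in g3_4 and 8.05, 8.54 and 8.92 in control. The clones did not overlap, with a difference of 0.52, but the control arrays were spread widely and overlapped g3_4, and the highest of them came close to the lowest g2_1 array.

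NMD3, an export adaptor of the large ribosomal subunit, had signals of 9.79, 10.10 and 9.88 in g2_1, 9.19, 9.61 and 9.46 in g3_4 and 9.46, 9.69 and 9.78 in control. All g2_1 arrays lay above all control arrays by a small margin, and g3_4 overlapped control, with 0.50 between the clones. ZNF639, a zinc finger protein, had signals of 9.95, 10.06 and 9.83 in g2_1, 9.41, 9.50 and 9.44 in g3_4 and 9.44, 9.56 and 9.50 in control, also 0.50 between the clones. Its g3_4 and control arrays covered nearly the same range.

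ZMAT3, an RNA-binding protein known as a p53 target, had signals of 8.90, 9.03 and 9.12 in g2_1, 8.65, 8.45 and 8.48 in g3_4 and 7.95, 8.57 and 8.76 in control. Its difference between the clones was 0.49, and control array 1 lay well below the other control arrays. MYNN, a zinc finger protein with a BTB domain, had signals of 8.91, 9.03 and 8.74 in g2_1, 8.39, 8.42 and 8.41 in g3_4 and 8.35, 8.75 and 8.35 in control, a difference of 0.49. Control array 2 of MYNN reached the lowest g2_1 array, and the other control arrays lay just under those of g3_4.

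**Figure D1:**
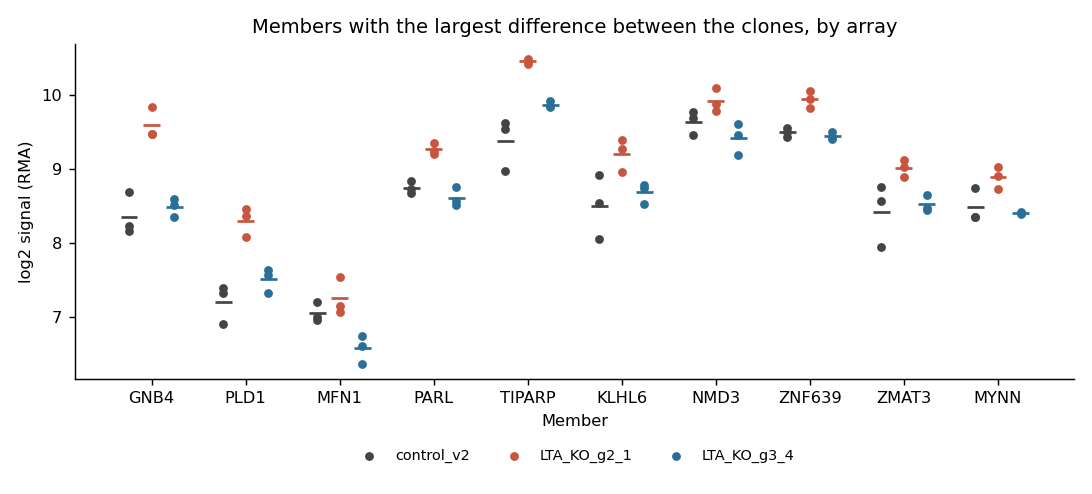
Log2 signal (RMA, vertical axis) of the 10 members with the largest non-overlapping difference between the clones, one point for each array, coloured by group, with a short line at the mean of the 3 arrays. In all 10 the g2_1 points lie above the g3_4 points, from a difference of 1.11 for GNB4 to 0.49 for MYNN.

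Along chromosome 3, the shift between the clones did not stop at the ends of the interval. Genes at or above the median level were taken in segments of 9.5 Mb. The 3 segments of the interval had median differences of 0.32 (15 genes), 0.39 (16 genes) and 0.34 (31 genes). The segment just before the interval had a median of 0.33, with g2_1 higher for 16 of 16 genes. The 2 segments after it had medians of 0.36 (18 of 21 higher) and 0.28 (25 of 26 higher), so the rule's limits do not mark the edges of the shift.

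Nearer the other end of the chromosome the difference was close to 0. In the 16 segments further before the interval the medians lay between -0.06 and 0.12, and the highest of these came from a segment with only 3 genes. Over all 405 genes of this level before the interval the median was 0.01, and over the 47 after it the median was 0.32. By whole chromosomes, the other 22 had medians from -0.02 (chromosome 9) to 0.17 (chromosome 20), with 0.13 on chromosome 4.

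**Figure D2:**
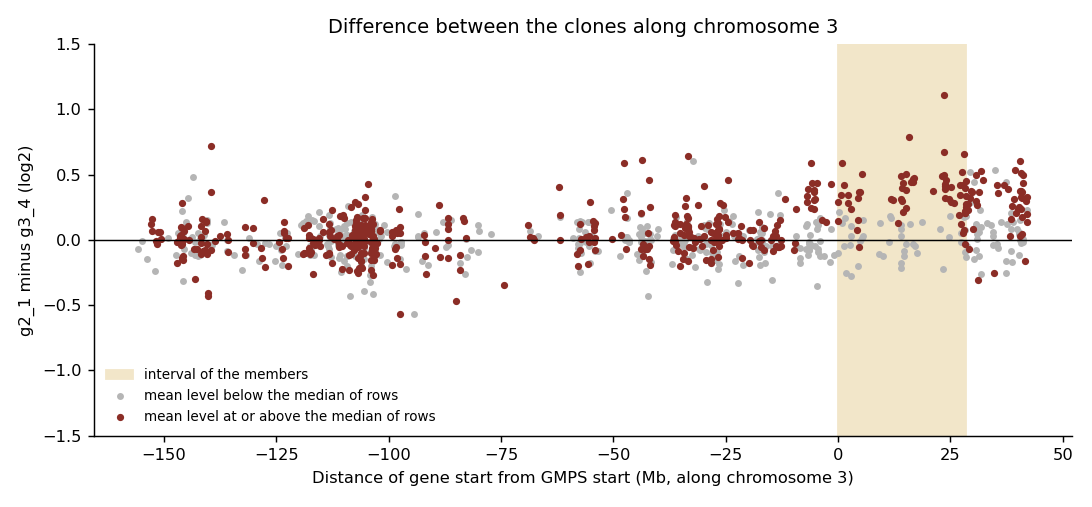
Difference between the clone means (g2_1 minus g3_4, log2) of named chromosome 3 genes against the distance of the gene's start from that of GMPS in Mb. Dark points are genes at or above the median level of rows, light points are genes below it, and the shaded band is the interval of the members. Dark points scatter about 0 over most of the chromosome and lie mostly above 0 from just before the interval to the end of the arm, where segment medians run from 0.28 to 0.39.

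The genes next to the ends of the interval were as follows. Just inside the first end, SLC33A1, an acetyl-CoA transporter of the endoplasmic reticulum, differed by 0.15, GMPS, which makes GMP, by 0.29 and KCNAB1, a potassium channel subunit near the floor, by 0.21. Just outside that end, GPR149, MME and C3orf33 were all under the first quartile, at 0.08, -0.12 and -0.10. At the far end, ALG3, CAMK2N2 and PSMD2 inside the interval differed by 0.25, 0.27 and 0.23. The genes beyond it, EIF4G1, FAM131A and POLR2H, differed by 0.34, 0.18 and 0.45. TNFSF10, inside the interval but not a member, differed by 0.44, and PIK3CA was not analysed here.

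Against control, g2_1 carried most of the shift. These contrasts share the control arrays with each other and a clone with the contrast that chose the interval, so their values and calls are given as a description only. Over the 62 members at or above the median level, the median difference from control was 0.39 for g2_1 and 0.05 for g3_4, where all rows of that level had 0.04 and 0.03. When arrays were centred on their medians, the median of all rows against control moved up by 0.11. Centring shifts every row of an array alike, so the members' distance from that median could not change. Over all 105 members the distance was 0.14 for g2_1 and -0.03 for g3_4. The control, g2_1 and g3_4 arrays had median differences from the control mean of -0.06 to 0.085, 0.355 to 0.43 and 0.01 to 0.06, so the g2_1 arrays stood apart and the g3_4 arrays lay within the control range.

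By position, the 3 segments of the interval had g2_1 medians against control of 0.15, 0.43 and 0.43, and g3_4 medians of -0.18, 0.09 and 0.13. With arrays centred on their medians the g2_1 medians were 0.26, 0.54 and 0.54 and the g3_4 medians -0.07, 0.20 and 0.24. The g3_4 median was below control in the first segment on both scales. By gene, g2_1 was above and g3_4 below the control mean for 20 of the 62 members. Both were above for 33, both were below for 9, and the reverse order was found for 0. The reverse order needs g2_1 below g3_4, which the choice of the interval made rare, so nothing is read from that count. With arrays centred on their medians, which moved the clones up against control in every row, these counts were 16, 40, 6 and 0. The g3_4 mean was nearer to control for 48 members and the g2_1 mean for 14, or 52 and 10 after centring. The shares of all rows with these patterns were not counted, so the counts are a description only.

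**Figure D3:**
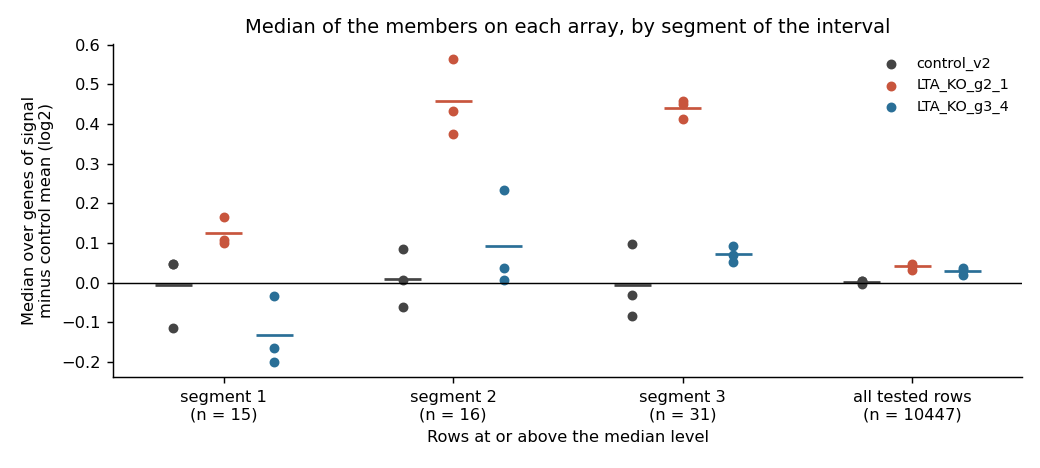
Median over members of the log2 signal minus the control mean, by array, for members at or above the median level in the 3 segments of the interval and for all tested rows of that level. Points are arrays coloured by group, and short lines are the means of 3 arrays. The g2_1 arrays lie above the g3_4 arrays in every segment, and in the first segment the g3_4 arrays lie at -0.20 to -0.03.

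At an adjusted p under 0.05, 25 members were called higher and 5 lower in g2_1 than in control, against 6.19% and 8.06% of all rows. In g3_4 the counts were 8 higher and 7 lower, against 6.12% and 8.16%, so its higher calls were near the background. Without g3_4 array 1 or g3_4 array 3 there were 5 higher calls. For those fits the share of all rows is not given here. Centring raised the g3_4 calls to 14 higher and 7 lower, against 11.5% and 6.63%, and changed the higher share of calls from 53.3% to 66.7%. PRKCI, an atypical protein kinase C of cell polarity, was among the 20 of 62 members with g2_1 above and g3_4 below the control mean. It had signals of 9.46, 9.51 and 9.44 in g2_1, 9.03, 9.04 and 9.04 in g3_4 and 9.04, 9.03 and 9.18 in control. Its g2_1 arrays stood 0.39 above the control mean, and its g3_4 arrays lay at the lower edge of control.

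**Figure D4:**
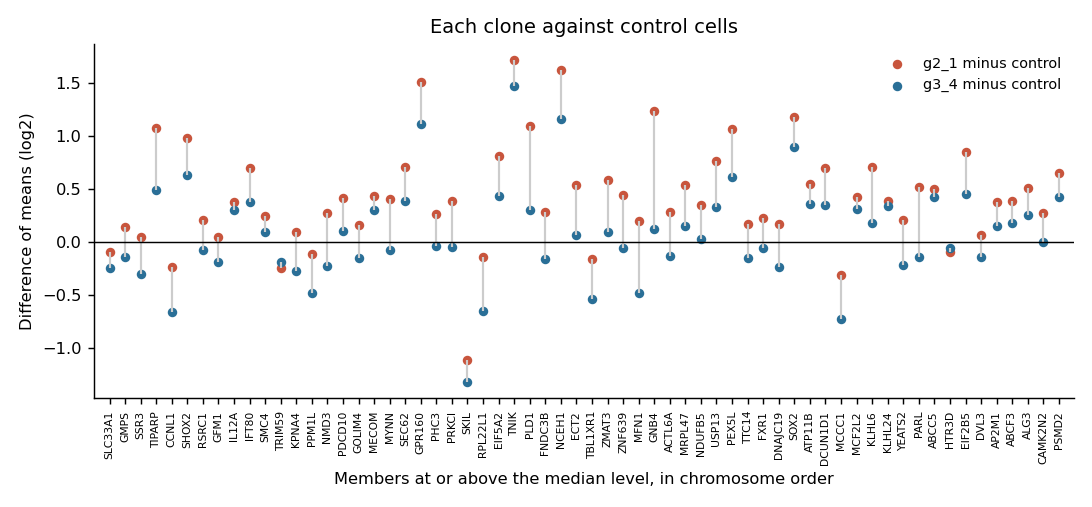
Difference of each clone's mean from the control mean (log2) for the 62 members at or above the median level, in chromosome order, with 1 point per clone and gene and a line that joins both clones. The g2_1 point lies above the g3_4 point for 60 of the 62 genes, and g3_4 scatters about 0 with a median of 0.05.

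The mean of both clones against control is orthogonal to the difference between them and was tested. By this test 18 of the 105 members rose and 7 fell, against 8.13% and 9.83% of all rows (limma, adjusted p under 0.05). Of the 18 and 7, 4 and 4 changed at least 2-fold, against 0.957% and 3.22%. The median over all members was 0.07 against 0.04 for all rows. Rises were not particular to the interval. At or above the median level 18 of 62 members rose and 3 fell (median 0.19), against 14.4% and 13% of such rows. After the interval 22 of 47 genes of that level rose and 0 fell (median 0.43). Chromosomes 22 and 11 had the highest medians of the other chromosomes, 0.18 and 0.17, with 59 of 235 and 151 of 560 rows higher. The lowest was -0.15 on chromosome X, with 26 of 283 higher. After centring, 30 rose and 5 fell, against 17% and 7.82%, and the higher share of calls moved from 72% to 85.7%. The contrast shares its error estimate with the difference between the clones. TNIK, NCEH1, GPR160 and SOX2 rose most, and MFSD1, LAMP3, SKIL and KCNMB3 fell most.

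TNIK, a kinase of the Wnt and JNK pathways, had signals of 6.79, 7.38 and 7.15 in g2_1, 6.47, 7.06 and 7.05 in g3_4 and 5.01, 5.16 and 5.99 in control. Every knockout array lay above every control array, and TNIK rose by 1.60 (SE 0.22, adjusted p = 5.3e-04). NCEH1, which hydrolyses cholesterol esters, had signals of 9.18, 9.56 and 9.38 in g2_1, 8.66, 9.03 and 9.02 in g3_4 and 7.88, 7.73 and 7.62 in control. It rose by 1.40 (SE 0.12, adjusted p = 1.4e-05), again without overlap.

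GPR160, an orphan receptor, had signals of 9.85, 10.04 and 9.94 in g2_1, 9.50, 9.66 and 9.47 in g3_4 and 7.77, 8.44 and 9.08 in control, and it rose by 1.31 (adjusted p = 0.0016). Its control arrays spread over more than both clones together, yet all lay below them. SOX2, a transcription factor of stem and neural cells, had signals of 7.01, 6.75 and 6.98 in g2_1, 6.66, 6.61 and 6.62 in g3_4 and 5.42, 5.63 and 6.14 in control, and it rose by 1.04 (adjusted p = 4.1e-04). For TNIK, GPR160 and SOX2, control array 1 was the lowest array. The arrays numbered 1 had an RNA integrity number of 10 in every group, and all other arrays had lower ones, down to 9.5. Whether this bears on their signals was not tested.

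MFSD1, a lysosomal membrane transporter, had signals of 8.25, 7.99 and 8.19 in control, 4.70, 5.35 and 4.85 in g2_1 and 4.60, 5.66 and 5.48 in g3_4. It fell by 3.04 (SE 0.22, adjusted p = 3.6e-06), and both clones lay at 4.60 to 5.66, toward the floor of the array. LAMP3, a lysosomal protein of mature dendritic cells, had signals of 7.57, 6.01 and 6.09 in control, 4.46, 4.39 and 4.35 in g2_1 and 4.27, 4.49 and 4.49 in g3_4. LAMP3 fell by 2.15 (adjusted p = 3.3e-04), and control array 1 was the highest of its arrays. MFSD1 and LAMP3 had control means above the median level, but their means over all 9 arrays were below it, so they are not among the 62 members of that level.

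SKIL (SnoN), a repressor of TGF-beta signalling, had signals of 8.57, 8.27 and 8.49 in control, 7.06, 7.51 and 7.43 in g2_1 and 6.91, 7.27 and 7.19 in g3_4. SKIL fell by 1.22 (adjusted p = 6.5e-05). KCNMB3, an accessory subunit of a calcium-activated potassium channel, had signals of 6.07, 5.97 and 5.81 in control, 4.92, 4.65 and 4.42 in g2_1 and 4.90, 4.86 and 4.91 in g3_4. KCNMB3 fell by 1.17 (adjusted p = 3.3e-05). KCNMB3 was below the median level in control cells too, at 5.95. Both genes had all 6 knockout arrays below all 3 control arrays.

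**Figure D5:**
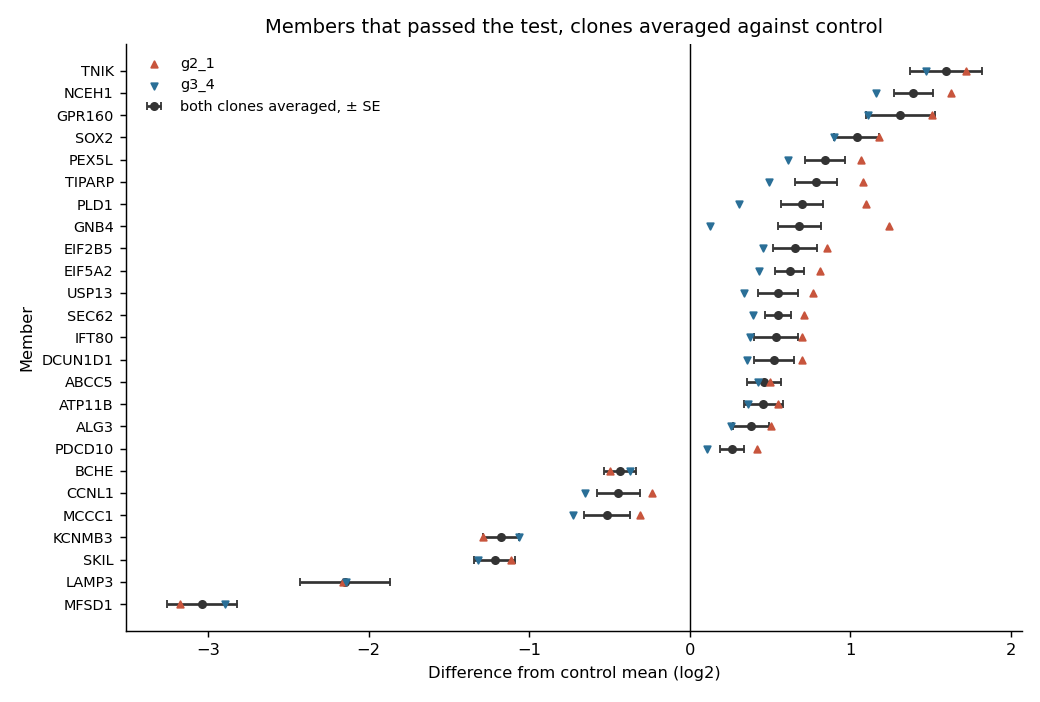
Difference from the control mean (log2, horizontal axis) of the 25 members that passed the test of the averaged clones, with triangles for each clone and a circle with its standard error for the average. The average runs from -3.04 for MFSD1 to 1.60 for TNIK.

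By role, the proteins of translation and of entry into the endoplasmic reticulum had a higher g2_1 than g3_4 mean in 8 of 8. Of all rows 49.9% did, but so did 60 of the 62 members at or above the median level. This contrast chose the interval, so its counts by role, here and below, follow from that choice and are no result about a role. In the averaged test 8.13% of all rows rose and 9.83% fell, and at or above the median level 14.4% and 13%. Of the 62 members of that level 29% rose and 4.84% fell. The lists were made with earlier results known, so the rises and falls by role, here and below, are no result about a role either. Against control 3 of the 8 rose and 0 fell, namely EIF2B5, a subunit of an initiation factor's exchange factor, by 0.66, EIF5A2, an elongation factor, by 0.62 and SEC62, of the protein-import channel, by 0.55. EIF2B5 and EIF5A2 were picked for their calls, after values were seen, as were IFT80, ATP11B, ABCC5, ALG3 and BCHE below. The ribosomal protein RPL22L1 differed by -0.40 from control and did not pass (adjusted p = 0.059), and SSR3, GFM1, NMD3 and MRPL47 did not pass either. RPL22L1 was the 1 member of the list that was lower at an unadjusted p under 0.05, which 14.6% of all rows met as higher and 14.1% as lower.

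All 7 mitochondrial proteins had a higher g2_1 mean, with a median difference between the clones of 0.41. Against control 0 rose by limma, with 0 higher at an unadjusted p under 0.05. In the same test 1 fell, MCCC1, an enzyme of leucine breakdown, by 0.52 (adjusted p = 0.028). MCCC1 differed from control by -0.72 in g3_4 and by -0.31 in g2_1, whose arrays overlapped control. NDUFB5, a subunit of respiratory complex I, was measured at 11.51, 11.86 and 11.54 in control, g2_1 and g3_4, and DNAJC19, of the import machinery, at 9.20, 9.38 and 8.97. The 7 chromosome and chromatin proteins were likewise all higher in g2_1, and against control 0 rose and 0 fell by limma. At an unadjusted p under 0.05, 1 of the 7 was higher, ECT2 of cytokinesis, and 1 was lower, TBL1XR1 of a co-repressor complex, which is near the shares of all rows. Among them SMC4, a condensin subunit, differed from control by 0.17 (adjusted p = 0.23), and ACTL6A, of chromatin remodelling complexes, by 0.08. IFT80, the ciliary transport protein whose promoter window overlaps that of SMC4, rose by 0.54 (adjusted p = 0.021).

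All 10 transcription and RNA factors had a higher g2_1 mean. Against control 1 rose, SOX2, and 2 fell, SKIL and CCNL1, a cyclin tied to splicing, the latter by 0.45 (adjusted p = 0.042). CCNL1 differed from control by -0.65 in g3_4 and by -0.24 in g2_1, whose arrays overlapped control. FXR1, an RNA-binding protein, stood at 11.10, 11.34 and 11.05 in control, g2_1 and g3_4. Of the 5 ubiquitin genes 4 had a higher g2_1 mean. Against control 2 rose, USP13, a deubiquitinase, by 0.55 and DCUN1D1, which helps to neddylate cullins, by 0.53. Of all rows 8.13% rose and 9.83% fell in this test. For USP13 and DCUN1D1 the g2_1 means lay 0.77 and 0.70 above control. Their g3_4 means lay 0.34 and 0.36 above it, with arrays that overlapped control. KLHL24 differed from control by 0.37 (adjusted p = 0.37).

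All 10 signalling genes had a higher g2_1 mean, although for RARRES1 the level was near the floor. Against control 5 rose and 0 fell, where 8.13% and 9.83% of all rows did. The 5 were TNIK, TIPARP by 0.79, PLD1 by 0.70, GNB4 by 0.69 and PDCD10, a scaffold protein of vessel integrity, by 0.26. For GNB4 and PLD1 the g3_4 arrays overlapped control, with g3_4 means 0.13 and 0.31 above it and g2_1 means 1.24 and 1.10 above it. At an unadjusted p under 0.05, 1 of the 10 was lower, the phosphatase PPM1L. DVL3, of the Wnt pathway, differed from control by -0.03 and did not pass.

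Of the 10 transport genes 8 had a higher g2_1 mean. Against control 4 rose and 2 fell, where 8.13% and 9.83% of all rows did, and the falls were those of MFSD1 and LAMP3. The rises were PEX5L, a relative of a peroxisomal import receptor, by 0.84, IFT80, ATP11B, a lipid flippase subunit, by 0.46 and ABCC5, an export pump, by 0.46. Of the 6 lipid, glycan and nucleotide genes 5 had a higher g2_1 mean, NCEH1 rose and BCHE, a cholinesterase, fell by 0.43. ALG3, a mannosyltransferase on no list, rose by 0.38. For ATP11B and ALG3 the g3_4 arrays overlapped control, with g3_4 means 0.36 and 0.26 above it and g2_1 means 0.55 and 0.51 above it. BCHE was near the floor in all groups, with means from 3.97 to 4.47.

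Several of the smaller changes kept their direction but lost their call when 1 array was left out. Where the call was lost, the changes were 0.25 to 0.28 for PDCD10, 0.305 to 0.38 for ALG3, 0.355 to 0.45 for ATP11B, -0.51 to -0.445 for MCCC1 and -0.475 to -0.36 for CCNL1. The call of CCNL1 was lost without any array except g3_4 array 3 or control array 1 (adjusted p up to 0.169), and that of PDCD10 without any except g2_1 array 3 or g3_4 array 1 (up to 0.0757). That of ALG3 was lost without any except g2_1 array 3, g3_4 array 3 or control array 2 (up to 0.147). MCCC1 lost its call without g2_1 array 1 or 2, g3_4 array 1 or control array 1 or 3 (up to 0.104). ATP11B lost it without g2_1 array 3, g3_4 array 2 or 3 or control array 1 or 2 (up to 0.114). IFT80 lost it without control array 1 (0.0720), and DCUN1D1 and ABCC5 without control array 2 (0.0638 and 0.0597). BCHE lost it when the arrays numbered 1 of all groups were left out (0.0792). With arrays centred on their medians, CCNL1 and MCCC1 did not pass (0.0828 and 0.0579).

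Of the 15 genes of other tissues, which include digestive, neuronal, hormone-receptor and germ-cell genes, 5 had a higher g2_1 mean, and against control 0 rose and 0 fell by limma, with 0 and 0 at an unadjusted p under 0.05. Only HTR3D reached the median level. The sucrase SI and the glucose transporter SLC2A2 had group means between 4.06 and 4.34, near the floor, where differences are compressed.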

How the data were processed

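The authors' deposited values were log2 signals of 9 Clariom S arrays, which the submitters' processing notes credit to RMA and Transcriptome Analysis Console 4.0. The genome build is not given in the sources used here, and RefSeq GRCh38.p14 served for names and positions of genes only. RMA gives all arrays a like distribution and compresses differences near the floor. Of 21448 rows, 555 unmapped ones were left out and 20893 tested, of which 17705 had 1 symbol, 0 had several and 3188 had none. No detection call was used, and precision is limited by 3 arrays per group.

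A limma 3.58.1 model (R 4.3.3) was fitted to all rows, with 1 coefficient per group and Benjamini-Hochberg adjustment, and called at an adjusted p under 0.05. The script was tested on simulated data. Same-numbered arrays of the clones deviated together (correlations 0.435, 0.191 and 0.310). The labels state no pairing, and the arrays numbered 1 also differed in RNA integrity, so the source of this cannot be told apart. The main fit left the array number out. The replicate block took it in, with an SE for the GNB4 clone difference of 0.10 against 0.16. Control arrays 1 and 3 also deviated with the same-numbered arrays of g2_1 (0.285 and 0.183) and g3_4 (0.298 and 0.257). For control array 2 these correlations were only 0.0426 and 0.0565, below those with arrays 3 of the clones (0.142 and 0.121). By array number the control arrays thus deviated with the clones only in part. Alternatives were centring, level filters, a replicate block, array weights, a trended robust fit, fits of only the groups compared and leaving out arrays.

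The members and the gene lists were chosen with earlier results of these data known. Named genes are the 10 members with the largest non-overlapping clone difference, the 3 genes on each side of each end, up to 6 called members per direction in the averaged contrast, up to 4 members of each role list by level, TNFSF10, PIK3CA and LTA, and the 3 members most against the median's direction.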

Additional observations from a re-analysis of the deposited data

Results flagged for a closer look

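For GNB4 the difference between the clones passed the test, with g2_1 higher than g3_4 by 1.11 on the log2 scale. This is the contrast that chose the interval, so it is no independent result. Guide and clone cannot be told apart, and the call was lost without any 1 array other than control array 1.

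For 9 more of the named members, every g2_1 array lay above the control mean and every g3_4 array below it. FNDC3B, which is not a named member, also met this. The share of all rows with this pattern was not counted. The pattern uses the contrast that chose the interval, so it is a description only. The differences between the clones for the 9 named members were 0.68 for MFN1, 0.50 for NMD3, 0.49 for MYNN, 0.43 for PRKCI and 0.41 for ACTL6A. They were 0.41 for DNAJC19, 0.37 for KPNA4, 0.31 for GOLIM4 and 0.29 for GMPS. In limma's fit none of these 9 differences passed, with adjusted p from 0.261 (PRKCI) to 0.991 (GOLIM4). With arrays centred on their medians, 3 of the 9 kept the pattern, DNAJC19, KPNA4 and MFN1. No group had enough arrays to look for single outlying ones.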

How the results depend on the processing

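Of the values of 50 named members under the alternatives, 709 kept their direction and side of the threshold, 16 gained a call, 25 lost one and 0 reversed. Medians below are log2 differences over members, clones averaged, g2_1 or g3_4 against control or g2_1 against g3_4. Centring gave medians of 0.18 averaged, 0.28 for g2_1 and 0.11 for g3_4, where all rows had 0.147, 0.147 and 0.143. The g3_4 median of the members thus lay below that of all rows. After centring 30 averaged and 14 g3_4 members were higher, against 17% and 11.5% of all rows. Leaving out rows under the first quartile gave 0.17 averaged, 0.32 between the clones and 0.29 for g2_1. Keeping rows at or above the median gave 0.19 averaged, 0.345 between the clones, 0.39 for g2_1 and 0.047 for g3_4. In that fit, which held only the members of that level, 4 averaged and 1 g2_1 member were lower. Between the clones 0 were higher. The replicate block gave 3 members higher between the clones and 11 lower in g3_4 against control. Array weights gave 5 higher between the clones and a g2_1 median of 0.14. Fits of only the groups compared gave 2 higher between the clones, and so did leaving out the arrays numbered 1, chosen after seeing the data. Apart from centring, the share of all rows called in each alternative fit, here and below, is not given. A change in the count of members thus cannot be told from a change in all rows. The cause of these changes was not tested.

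Leaving out 1 array in turn gave 0 to 4 members higher between the clones (0 without any of the arrays except control array 1, 4 without that one), with medians of 0.19 to 0.245. The averaged contrast ran from 15 to 18 higher and 5 to 8 lower, with medians of 0.05 to 0.095. The g2_1 contrast ran from 18 to 26 higher and 4 to 5 lower (0.13 to 0.20), and that of g3_4 from 5 to 11 higher and 5 to 9 lower (-0.01 to 0.02). Ends set at GMPS and AP2M1, also chosen after seeing the data, changed no count by over 1.5 times. Signals near the floor limit what the 34 lowest members can show.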
